A study of Mus musculus with 5 samples.

Results

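MOL2/4 is a small population of mature oligodendrocytes (MOL) of the mouse corpus callosum. Its members were all cells that carried the MOL2/4 cluster label in the deposited table of cells, which came to 123 of 2853 cells (4.31%). They made up 60 of the 1901 cells of the TdTom+ library and 63 of the 952 cells of the GFP+ library. Both libraries came from the pooled corpus callosum of 2 healthy adult mice at postnatal day 60 (P60), of a line whose name joins Emx1::Cre, Sox10::Cre and the reporter LoxP-GFP-STOP-TdTom, on a mixed CBA and C57BL/6 background. In this line the oligodendrocyte lineage cells of dorsal origin, from progenitors in which the Emx1 promoter is active, are TdTom+, and those of ventral origin are GFP+. The cells were sorted by reporter and sequenced as 1 droplet library of 3′ ends per origin, to ask how developmental origin relates to the mature subpopulations. With 1 library per origin, and labels made by clustering the same transcripts, no test was run, and all intervals are exact 95% intervals that cover counting error only.

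Oligodendrocytes wrap axons in myelin, and the mature cells fall into transcriptional states named MOL1 to MOL6. Klk6 encodes kallikrein 6, a secreted serine protease of myelinating glia, and marks the MOL2 state, whereas Ptgds, the prostaglandin D2 synthase also known as a secreted lipid carrier, marks the MOL5/6 state. Secreted and membrane proteins are made on ribosomes docked at the endoplasmic reticulum (ER), to which a hydrophobic stretch of the new chain directs them, whereas cytosolic and nuclear proteins are made on free ribosomes.

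MOL2/4 was set beside 896 cells of the other MOL2 labels (MOL2/MFOL, MOL2a and MOL2b) and beside 1231 cells of the MOL5/6 labels (MOL4-5/6, MOL6a and MOL6b). MOL2/4 gave 182600 TdTom+ and 218391 GFP+ unique molecular identifiers (UMIs, each 1 captured transcript). A MOL2/4 cell held between 1991 and 5967 UMIs, with medians of 2757.5 (TdTom+) and 3312 (GFP+), against medians of 3962 and 4164 in the other MOL2 labels and 2970.5 and 2983 in the MOL5/6 labels. The libraries shared 1 cell barcode over all cells, which was no MOL2/4 barcode.

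The coding starts of 4 genes on which the results turn are given here, since the class of protein that a transcript encodes recurs throughout the results below. Each run holds the first 40 codons of the longest coding sequence in GENCODE M21 (GRCm38, the sequence of mm10). Except in S100b, the 19 codons of the most hydrophobic stretch of these codons are in capitals, whether or not it reaches the threshold used below. Klk6 starts at base 43826057 of chromosome 7 on the plus strand, Trf at base 103230216 of chromosome 9 on the minus strand, Htra1 at base 130936272 of chromosome 7 on the plus strand and S100b at base 76257035 of chromosome 10 on the plus strand. The first 3 encode secreted proteins, and S100b, a cytosolic calcium-binding protein, is shown as the contrast. Its most hydrophobic stretch, codons 1 to 19, was left in lower case by choice.
Klk6: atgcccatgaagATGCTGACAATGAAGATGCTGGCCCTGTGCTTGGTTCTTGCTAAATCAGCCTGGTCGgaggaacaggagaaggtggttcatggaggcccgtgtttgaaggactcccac
Trf: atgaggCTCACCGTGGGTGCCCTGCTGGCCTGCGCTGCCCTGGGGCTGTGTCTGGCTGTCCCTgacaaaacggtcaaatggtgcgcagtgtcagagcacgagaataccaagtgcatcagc
Htra1: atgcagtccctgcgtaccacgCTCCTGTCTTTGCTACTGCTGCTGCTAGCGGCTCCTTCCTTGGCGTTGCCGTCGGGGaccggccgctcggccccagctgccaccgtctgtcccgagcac
S100b: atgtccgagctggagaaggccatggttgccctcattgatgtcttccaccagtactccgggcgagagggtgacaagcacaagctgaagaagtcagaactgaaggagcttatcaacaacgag

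Klk6 was highest in MOL2/4 of all 12 labels in each library. Its level was 712 counts per 1000000 UMIs (CPM) in TdTom+ MOL2/4 cells (interval 595 to 845) and 2235 CPM in GFP+ MOL2/4 cells (2041 to 2442). The next labels lay far lower, with MOL1 at 300.2 CPM and MOL2/MFOL at 273 CPM in the TdTom+ library, and MOL2/MFOL at 645 CPM and MOL1 at 633 CPM in the GFP+ library. The intervals of MOL1 and MOL2/MFOL overlapped in each library, so their order was not resolved, whereas that of MOL2/4 overlapped none. MOL2a and MOL2b followed at 230 and 179 CPM in the TdTom+ and at 444 and 447 CPM in the GFP+ library. In the 3 MOL5/6 labels Klk6 stayed between 2.09 and 17.7 CPM, and OPCs, the oligodendrocyte precursor cells, held no Klk6 UMI in either library. These orders describe the labels and are no test, because Klk6 could take part in the clustering.

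**Figure D1:**
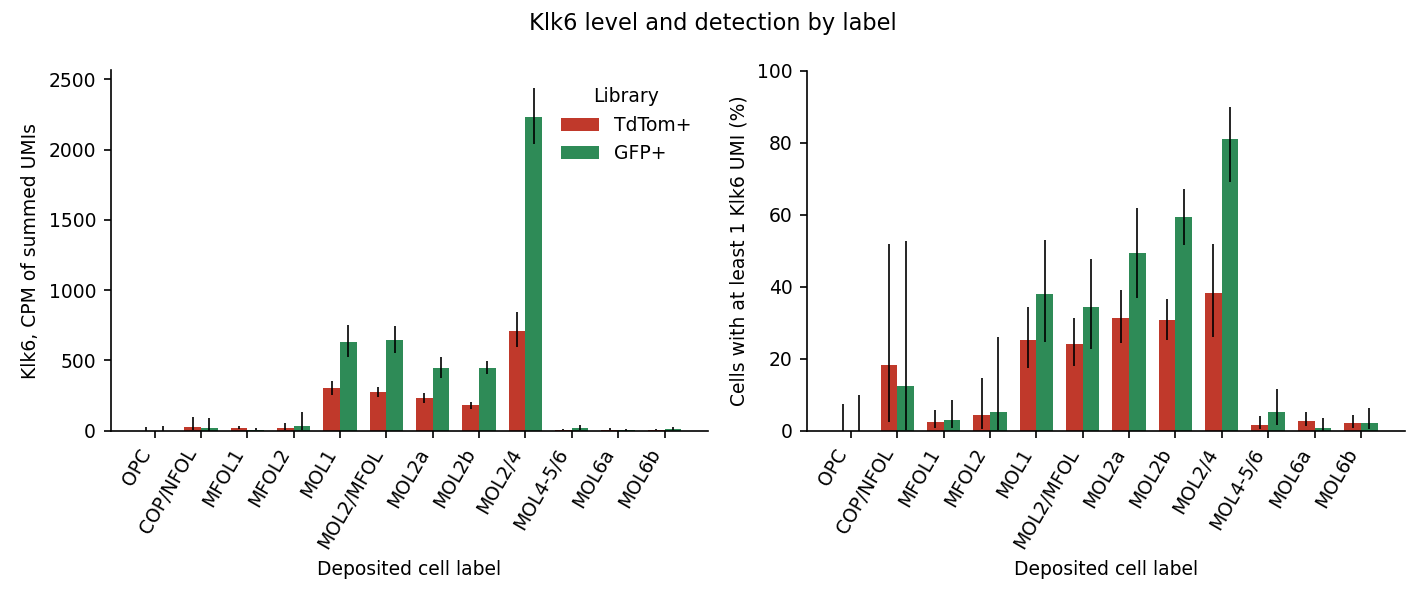
Klk6 level as CPM of summed UMIs (left) and percent of cells with at least 1 Klk6 UMI (right) in each of the 12 deposited labels, with bars for the TdTom+ and GFP+ libraries and exact 95% intervals. MOL2/4 stands highest in both panels, at 712 and 2235 CPM and at 38.3% and 81.0% of cells. On the right its TdTom+ interval overlaps those of MOL1, COP/NFOL, MOL2/MFOL, MOL2a and MOL2b, so that rank is not resolved.

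Klk6 was neither in every MOL2/4 cell nor in MOL2/4 cells alone. It was detected in 23 of 60 TdTom+ cells (38.3%, Clopper-Pearson interval 26.1% to 51.8%) and in 51 of 63 GFP+ cells (81.0%, 69.1% to 89.8%), so that 49 of the 123 cells had no Klk6 UMI. Thinning every cell to 2400 UMIs dropped 12 TdTom+ and 5 GFP+ MOL2/4 cells as too shallow and gave shares of 47.9% (33.3% to 62.8%) and 86.2% (74.6% to 93.9%). The thinned shares were 22.6% and 41.0% in the other MOL2 labels, 1.87% and 2.38% in the MOL5/6 labels, and 0 of 41 and 0 of 30 OPCs, which allows up to 8.60% and 11.6% of OPCs with a Klk6 UMI at that depth and sets no limit on how many express it. Median depths before thinning were 2909 and 2837 UMIs in OPCs. Where Klk6 was present, the median was 5 UMIs in the TdTom+ and 6 in the GFP+ MOL2/4 cells, and the highest cells held 16 and 28 UMIs. Klk6-positive cells of the other MOL2 labels had medians of 2 and 3 UMIs at a greater depth, but reached 22 and 59 UMIs in single cells. Summed over the positive cells alone, Klk6 stood at 1608 CPM (1344 to 1910) and 2640 CPM (2411 to 2885) in MOL2/4, against 632 CPM and 790 CPM in the other MOL2 labels. In MOL1 it stood nearer, at 892 CPM (750 to 1052) and 1354 CPM (1129 to 1610).

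MOL2/4 held 130 of the Klk6 UMIs of the TdTom+ library (14.9%, interval 12.6% to 17.4%) and 488 of those of the GFP+ library (38.1%, 35.4% to 40.8%). MOL2b held 23.1% and 26.5% and MOL2/MFOL 23.4% and 14.0%. Of the cells with at least 10 Klk6 UMIs, 4 of 21 in the TdTom+ and 19 of 34 in the GFP+ library were labelled MOL2/4. The other kallikrein in the matrix, Klk8, gave 1 UMI in all MOL2/4 cells.

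The remaining MOL2 markers put MOL2/4 on the MOL2 side, without setting it apart from the other MOL2 labels as Klk6 did. All 6 MOL2 markers were at least 2-fold higher in MOL2/4 than in the MOL5/6 labels in both libraries, the size that counts as a difference throughout, against a background of 4.86% of the 2858 genes compared that were higher by this rule. Spock3, which encodes a secreted proteoglycan of the testican family, was at 652 and 696 CPM in TdTom+ and GFP+ MOL2/4 cells, 343 and 343 CPM in the other MOL2 labels and 135 and 165 CPM in the MOL5/6 labels. Mgst3, a microsomal glutathione transferase, was at 197 and 279 CPM, 99.8 and 146 CPM, and 21.2 and 29.0 CPM in the same order. Both had their highest level of all labels in MOL2/4, but did not reach the 2-fold rule against the other MOL2 labels in both libraries (log2 ratios of 0.92 and 1.02 for Spock3, 0.97 and 0.93 for Mgst3). For Mgst3 the interval of MOL2/4 overlapped that of MOL2a in each library, so its rank was not resolved. S100b was at 641 and 1191 CPM in MOL2/4, 1300 and 2027 CPM in the other MOL2 labels and 52.9 and 70.8 CPM in the MOL5/6 labels. Hopx, an unusual homeodomain protein that does not bind DNA, was at 120 and 247 CPM against 195 and 244 CPM in the other MOL2 labels, and Anxa5, the phospholipid-binding annexin A5, was at 115 and 142 CPM against 122 and 159 CPM. Against the other MOL2 labels Klk6 was the 1 MOL2 marker of 6 that was called, with log2 ratios of 1.69 (interval 1.41 to 1.97) and 2.19 (2.02 to 2.37), where 2.65% of 2873 genes were called higher.

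The genes listed as MOL5/6 markers differed in direction in MOL2/4. Apod, the lipid carrier apolipoprotein D, was at 6972 and 9927 CPM in MOL2/4, against 2098 and 2489 CPM in the other MOL2 labels and 1164 and 1392 CPM in the MOL5/6 labels. Trf, which encodes the iron carrier transferrin, was at 9655 and 10463 CPM, against 3002 and 3218 CPM and 2067 and 2499 CPM. Both genes were highest in MOL2/4 of all labels, and higher there than in the MOL5/6 labels. The other MOL2 labels also lay above the MOL5/6 labels for both genes, as did MOL1. MOL1 was at 2069 and 2367 CPM for Apod and at 4953 and 4709 CPM for Trf. Neither gene thus marked the MOL5/6 labels here, and this direction was not particular to MOL2/4. Ptgds was between the 2 sides, at 4628 and 2825 CPM against 1505 and 1291 CPM in the other MOL2 labels and 14973 and 16039 CPM in the MOL5/6 labels. Over the MOL2/4 cells with Klk6 alone Ptgds was at 1410 CPM (interval 1163 to 1694) and 200.2 CPM, under the other MOL2 labels in both libraries. The TdTom+ interval takes in their level, so a turned direction was resolved in the GFP+ library only. Here, and wherever MOL2/4 cells that lacked Klk6 were left out, the compared labels kept all their cells, with or without Klk6. Il33, an alarmin cytokine of the nucleus, was at 104 and 87.0 CPM, near the 95.6 and 75.9 CPM of the other MOL2 labels and far from the 674 and 678 CPM of the MOL5/6 labels. Most of its UMIs lay in cells without Klk6, and over the cells with Klk6 it was at 37.1 CPM (3 UMIs, interval 7.65 to 108) and 5.41 CPM (1 UMI, 0.137 to 30.1), under the other MOL2 labels in both libraries, although the TdTom+ interval takes in their level. Jph4, a junctophilin of ER and plasma membrane contacts, was likewise lower than in the MOL5/6 labels, at 148 and 119 CPM against 411 and 345 CPM. Car2 (carbonic anhydrase) and Grm3 (a metabotropic glutamate receptor) were within 2-fold of both comparison groups. No markers of a MOL4 state were among the lists used, so that side of the label's name was not checked.

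**Figure D2:**
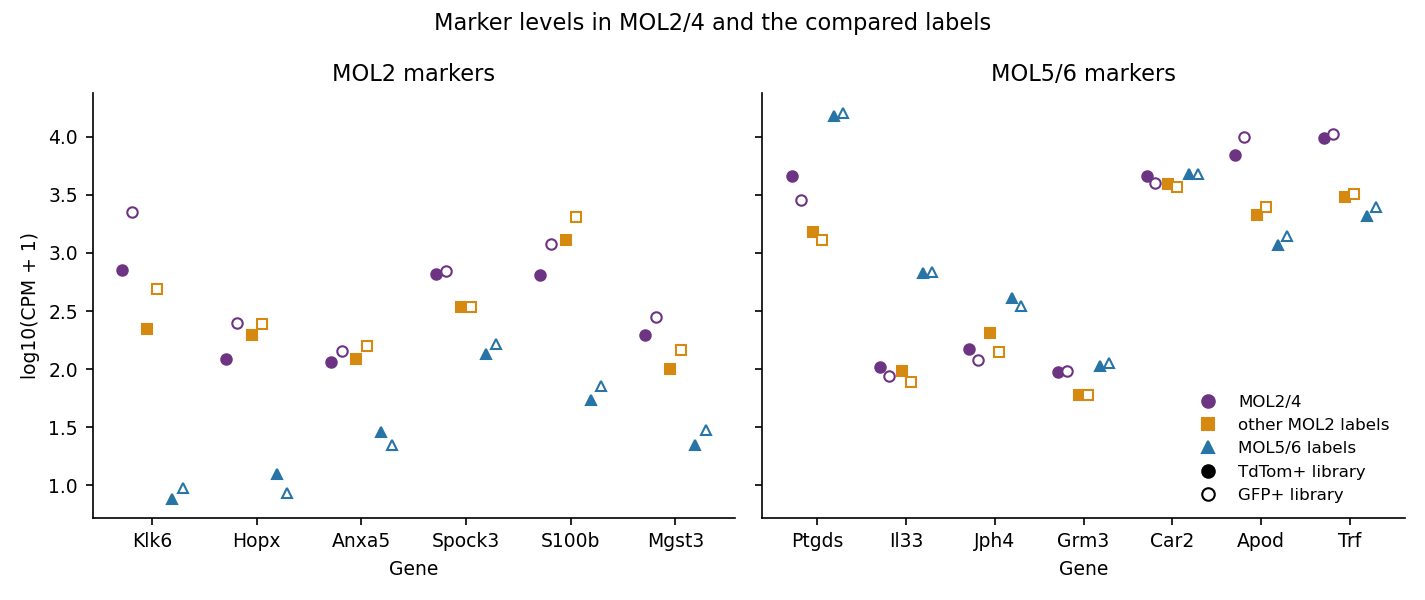
Levels of 6 MOL2 markers (left) and 7 MOL5/6 markers (right) as log10(CPM + 1) of summed UMIs in MOL2/4, the other MOL2 labels and the MOL5/6 labels, with filled symbols for the TdTom+ and open symbols for the GFP+ library. MOL2/4 stands above both groups for Klk6, Spock3, Mgst3, Apod and Trf, and below the MOL5/6 labels for Ptgds, Il33 and Jph4.

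High Ptgds counts were found in a minority of MOL2/4 cells, nearly all without Klk6. At least 10 Ptgds UMIs were found in 20 of the 123 cells, of which 18 had no Klk6 UMI. In the GFP+ library none of the 51 cells with Klk6 reached 10 Ptgds UMIs, against 7 of the 12 cells without it. In the TdTom+ library these numbers were 2 of 23 and 11 of 37. Ptgds accordingly summed to 200.2 CPM (141 to 276) in GFP+ cells with Klk6 and 17291 CPM (15912 to 18758) in GFP+ cells without it, and to 1410 CPM and 7183 CPM in the TdTom+ library. The latter GFP+ level is near that of the MOL5/6 labels.

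**Figure D3:**
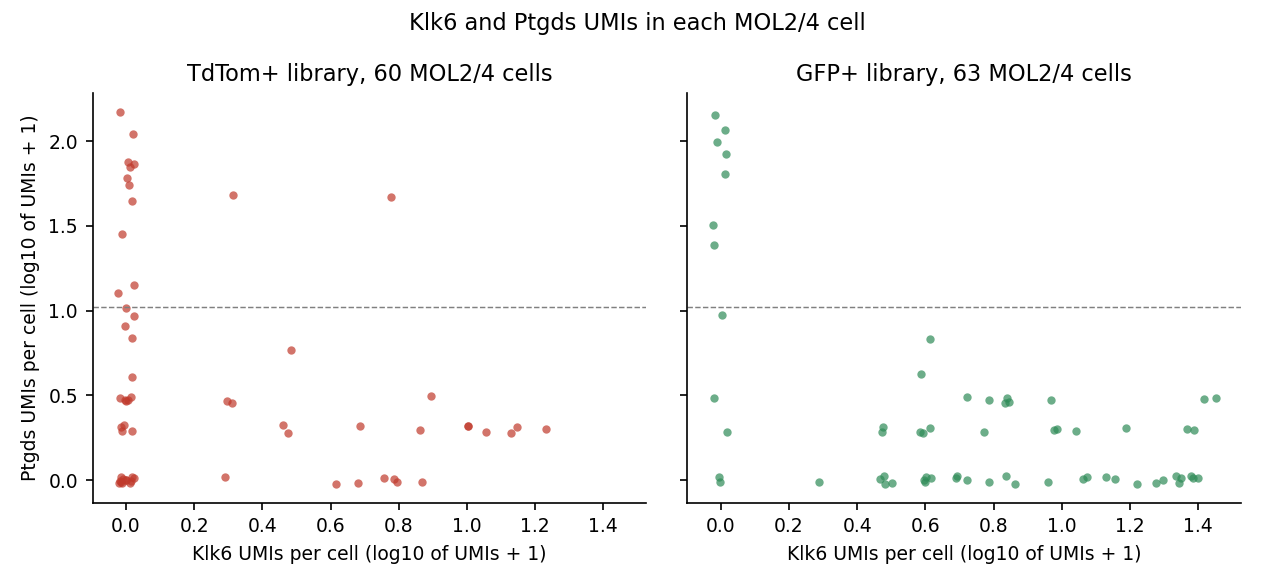
Klk6 UMIs against Ptgds UMIs in each MOL2/4 cell, as log10 of UMIs + 1, with the 60 TdTom+ cells on the left and the 63 GFP+ cells on the right. Points are spread by a small random shift, and the dashed line marks 10 Ptgds UMIs, above which lie 13 TdTom+ and 7 GFP+ cells, all but 2 of them without Klk6.

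Other genes followed the same split. Il33 was at 537 CPM (18 UMIs) in the GFP+ and 157 CPM (16 UMIs) in the TdTom+ cells without Klk6. In the GFP+ library, Opalin, a membrane glycoprotein of myelin-forming cells, was at 124 CPM with Klk6 and 1133 CPM without. S100b went the other way, at 1347 CPM with Klk6 and 328 CPM without, and Hopx and Sparc, a secreted matrix protein, had no UMI in the 12 cells without Klk6. In the TdTom+ library, Opalin was at 173 CPM with Klk6 and 747 CPM without, and S100b at 891 and 442 CPM, whereas Hopx stood at 124 and 118 CPM and Sparc at 235 and 177 CPM, with overlapping intervals. Apod and Trf were high on both sides: Apod was at 5426 CPM in the GFP+ and 6505 CPM in the TdTom+ cells without Klk6. The cells without Klk6 were shallower, with medians of 2613 against 3099 UMIs in the TdTom+ and 2574.5 against 3405 UMIs in the GFP+ library, and the part of depth in the split was not tested. Counting Hopx, Anxa5, S100b and Mgst3 along with Klk6, 72 of the 123 cells had Klk6 and another of these, 32 had another without Klk6, 2 had Klk6 alone and 17 had none of the 5.

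Most MOL2/4 cells also shared an RNA make-up whose medians lay outside those of every other label. Its measures are also used to judge RNA quality, and whether these cells were intact was not tested, which bears on every MOL2/4 level and ratio given here. Transcripts of the cytosolic ribosomal proteins made up a median of 2.32% of a cell's UMIs in TdTom+ MOL2/4 cells (range 0.954% to 8.03%) and 2.15% in GFP+ MOL2/4 cells (0.994% to 7.12%). In all other labels the medians were between 6.02% and 9.01%. Malat1, a long noncoding RNA kept in the nucleus, took a median of 20.2% and 22.97% of UMIs in MOL2/4, and between 6.72% and 16.9% in the other labels. The 13 mitochondrially encoded transcripts took 2.07% and 2.05%, against medians between 0.731% and 1.83% elsewhere. Genes per cell, after thinning to 2400 UMIs, had medians of 1076 and 1069.5 in MOL2/4 against 1188 and 1182 in the other MOL2 labels and 1180 and 1169.5 in the MOL5/6 labels.

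The low ribosomal protein share was a property of most, but not all, MOL2/4 cells. It was under 4% in 49 of 60 TdTom+ cells (81.7%, interval 69.6% to 90.5%) and 58 of 63 GFP+ cells (92.1%, 82.4% to 97.4%), together 107 cells, against 60 of the 2730 other cells (2.20%, 1.68% to 2.82%). The limit of 4% was chosen after the values were seen. Of these 60 cells, 25 were MOL6a and 12 MFOL1 (myelin-forming oligodendrocytes), and none was MOL2a, MOL4-5/6 or MOL6b. The 25 MOL6a cells also had a high Malat1 share, with a median of 20.7% against 12.3% in the other 426 MOL6a cells, and a mitochondrial share of 2.39% against 1.32%. In MOL2/4 the ribosomal protein share was low on both sides of the Klk6 split, with medians of 1.95% and 2.60% in the TdTom+ and 2.09% and 3.12% in the GFP+ library.

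**Figure D4:**
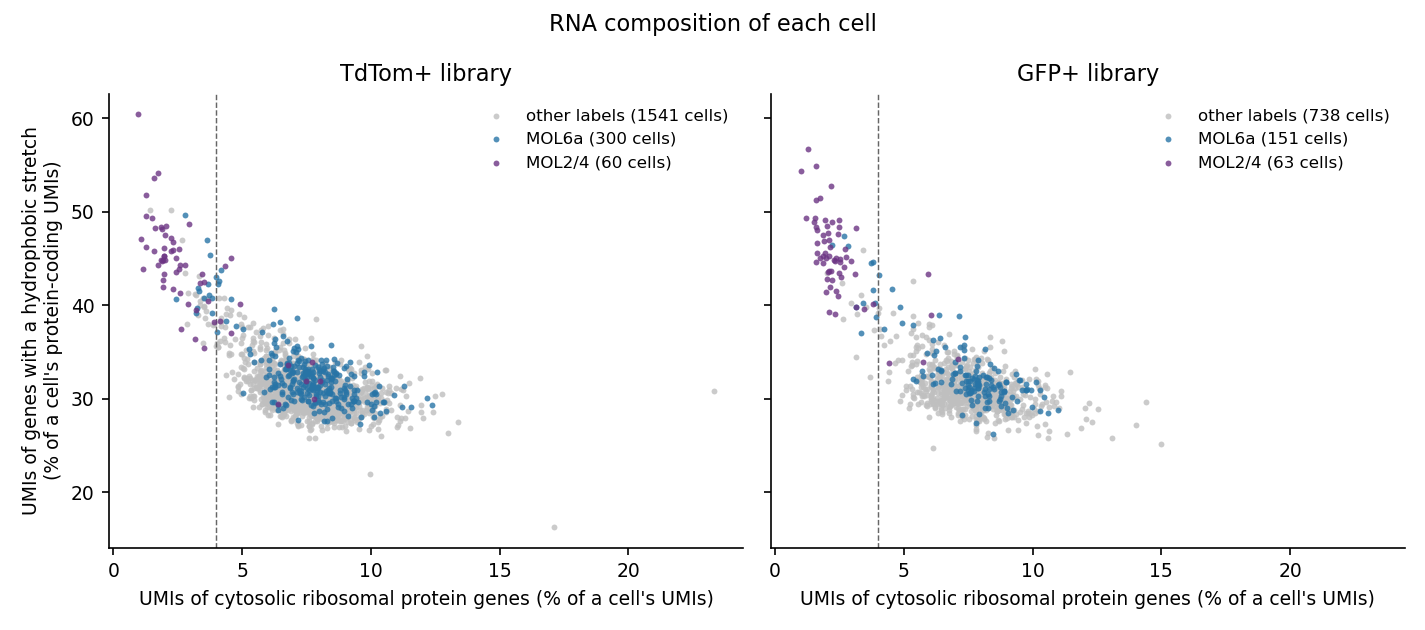
Share of a cell's UMIs from cytosolic ribosomal protein genes (horizontal axis, percent) against the share of its protein-coding UMIs from genes that encode a hydrophobic stretch (vertical axis, percent), 1 point per cell, for the TdTom+ (left) and GFP+ (right) libraries. MOL2/4 cells lie at the upper left, with 107 of 123 below the dashed line at 4%, next to a smaller number of MOL6a and other cells.

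Against the other MOL2 labels, 76 genes were higher and 225 lower in MOL2/4 (7.83% of 2873 genes compared were lower). The median log2 ratio over all genes compared was -0.14 in the TdTom+ and -0.18 in the GFP+ library, so a gene at 0 lay slightly above the middle. Since the ratios differed by class of encoded protein (described further on), counts of gene lists are also given with each gene centred on the median of its class, with or without a hydrophobic stretch, a setting that was added once the values were known. With centring by class 61 of all 2873 genes were higher and 129 lower, which is the background for the centred counts. The genes with the highest ratios in both libraries were led by Pdia3, an ER protein disulfide isomerase, at 378 and 343 CPM against 89.0 and 89.4 CPM, with log2 ratios of 2.07 (1.68 to 2.48) and 1.93 (1.504 to 2.37). Htra1, a secreted serine protease, followed at 230 and 169 CPM against 66.8 and 49.6 CPM, and then Apod. Serpinb1a, an intracellular inhibitor of serine proteases, was at 548 and 582 CPM against 157 and 177 CPM. Serpind1, which encodes heparin cofactor II, a secreted protease inhibitor, was at 153 and 192 CPM against 49.3 and 51.1 CPM. Klk6 and Trf ranked beside these. Of the 7 genes compared from the list of proteases and protease inhibitors, Htra1 and Serpinb1a were higher and none was lower (2.65% of all genes were higher).

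The rest of the 15 highest genes were Lgmn (legumain) and Ctsz (cathepsin Z), which are lysosomal proteases, Gsn (gelsolin, which severs actin and has a secreted form), B4gat1 (a glycosyltransferase of the Golgi), Pdia4 and Tmx2 (a disulfide isomerase and a thioredoxin-like membrane protein of the ER), Derl1 (which helps to export misfolded proteins from the ER) and Ilvbl, an ER membrane enzyme. For B4gat1 the ratio nearer 0 fell from 1.44 to 0.38 without the MOL2/4 cells that lacked Klk6, and those of Tmx2 and Derl1 fell to 0.96 and 0.90, under the 2-fold rule. Ilvbl came to 0.98 with cells thinned to 2400 UMIs and Pdia4 to 0.89 against MOL2b alone. Gsn was at 778 and 833 CPM against 272 and 304 CPM, and Lgmn at 219 and 188 CPM against 59.1 and 66.1 CPM. Among the 13 lysosomal genes compared, 5 were higher (Lamp1, Ctsd, Ctsl, Ctsz and Psap) and none lower, with list medians of 1.08 and 0.87, where 2.65% of all genes were higher. With centring by class 2 were higher, where 61 of all 2873 genes were. Of the 5, Ctsz stayed called, whereas Lamp1 came to 0.93, Ctsd to 0.72, Ctsl to 0.75 and Psap to 0.86. Lamp1, a membrane glycoprotein of the lysosome, was at 2327 and 2376 CPM against 971 and 948 CPM. Of 30 genes of ER protein folding, translocation and quality control, a list drawn up after the values were seen, 13 were higher, Pdia3, Pdia4, Derl1 and Hspa5 among them, where 2.65% of all genes were higher. With centring by class 7 were higher, where 61 of all 2873 genes were. Of the 7, 6 were among the 13, and Hspa5, the main Hsp70 chaperone of the ER, came to 0.99. The 2 that were lower, a share near the 7.83% of all genes, were Sec61b and Sec61g, subunits of the translocation channel, and Sec61g was at 32.9 and 27.5 CPM against 124 and 104 CPM. Neither of the 2 transcription factors of the unfolded protein response that were compared was called. Xbp1 was at 93.1 and 110 CPM against 71.1 and 66.9 CPM, and Atf4 at 38.3 and 73.3 CPM against 76.5 and 85.7 CPM.

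Lipid synthesis genes were called in part, and with centring by class only the call of Fdps held among them. Of 15 genes of fatty acid and galactolipid synthesis, 3 were higher and none lower (2.65% of all genes were higher), namely Elovl1, which lengthens very long fatty acids, Cers2, the ceramide synthase for such chains, and Degs1, a ceramide desaturase. With centring by class none of the 15 was called, with Elovl1 at 0.98, Cers2 at 0.78 and Degs1 at 0.83. Cers2 was at 772 and 669 CPM against 284 and 302 CPM. Of 11 genes of cholesterol synthesis, 2 were higher, Fdps and Ebp, and none lower. Fdps came to 0.95 with a pseudocount of 10 CPM and Ebp to 0.96 with centring by class, so each setting left 1 called. The structural myelin genes were little different by this rule, with 1 of 23 higher, Cd9, a tetraspanin, a share near the 2.65% of all genes, and without the MOL2/4 cells that lacked Klk6 its ratio nearer 0 was 0.61, and with centring by class it was 0.85. Neither Mbp, Mobp nor Mag, named after their values were seen, was called. Mbp and Mobp, both basic proteins of myelin, were at 8943 and 8622 CPM against 12088 and 12303 CPM and at 1917 and 1708 CPM against 3771 and 3996 CPM. Mag, a membrane adhesion protein of the axon side, was at 2251 and 2207 CPM against 1125 and 1100 CPM, just short of 2-fold in the TdTom+ library.

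Cytosolic ribosomal protein genes were the largest listed group among the 225 lower genes. Of 80 cytosolic ribosomal protein genes compared, 56 were lower and none higher, with medians of -1.27 and -1.58. With centring by class 38 were lower, where 129 of all 2873 genes were. Rps12 was at 142 and 96.2 CPM against 561 and 512 CPM, with log2 ratios of -1.97 (-2.60 to -1.42) and -2.40 (-3.11 to -1.79), and Rpl35a, Rpl37a, Rps24 and Rps3a1 were also among the 10 lowest genes. The other genes of that group were Bcl7b, a chromatin remodelling subunit, Ywhaz, a 14-3-3 adaptor of the cytosol, H1f0, a linker histone, Chchd7, a small mitochondrial protein, and Sec61g. Ywhaz was at 49.3 and 50.4 CPM against 193 and 198 CPM, but rested on 9 and 11 UMIs. Fth1, the ferritin heavy chain that stores iron in the cytosol, was at 17744 and 16535 CPM against 43885 and 46243 CPM, with a ratio nearer 0 of -1.31 that came to -0.98 with centring by class. Of 75 nuclear genes of the respiratory chain and ATP synthase, 16 were lower and none higher (12 with centring by class, of which 7 were among the 16), whereas none of the 7 mitochondrially encoded genes compared was called. Of 17 tubulins and microtubule regulators, Tppp3 and Stmn1 were lower and none was higher, a share near the 7.83% of all genes that were lower, and Stmn1 came to -0.79 with centring by class and to -0.77 against MOL2b alone. The ribosomal protein, Malat1 and mitochondrial shares above move with these gene groups. With totals that leave out those UMIs, 132 genes were higher and 201 lower, and the ribosomal protein medians were -1.19 and -1.497. Their part in the ratios beyond the totals was not tested.

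Genes that were higher and genes that were lower differed in the class of protein they encode. A hydrophobic stretch, taken as a window of 19 residues with a mean Kyte-Doolittle hydropathy of at least 1.6 anywhere in the protein, was encoded by 871 of the 2764 genes compared that had a coding sequence (96.2% of 2873). Of the 871 genes, 65 were higher (7.46%) and 21 lower (2.41%), with median log2 ratios of 0.33 and 0.37. Of the 1893 genes without such a stretch, 8 were higher (0.423%) and 193 lower (10.2%), with medians of -0.32 and -0.41. Genes with the stretch were 89.0% of the higher genes and 9.81% of the lower genes with a coding sequence. Leaving out the ribosomal protein genes, the genes without the stretch still had medians of -0.29 and -0.39. At a threshold of 1.3, which takes in the stretch at the start of Klk6 (mean hydropathy 1.36), 71 of 73 higher genes encoded one. That class was wider, with 1325 genes, of which 5.36% were higher, and its medians were 0.17 and 0.21. The windows at the start of Trf and Htra1 have means of 2.22 and 1.97, and that of S100b 0.353. Klk6 and Apod, with highest windows of 1.36 and 1.53, were thus among the 8 higher genes counted without a stretch at 1.6, although both encode secreted proteins.

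**Figure D5:**
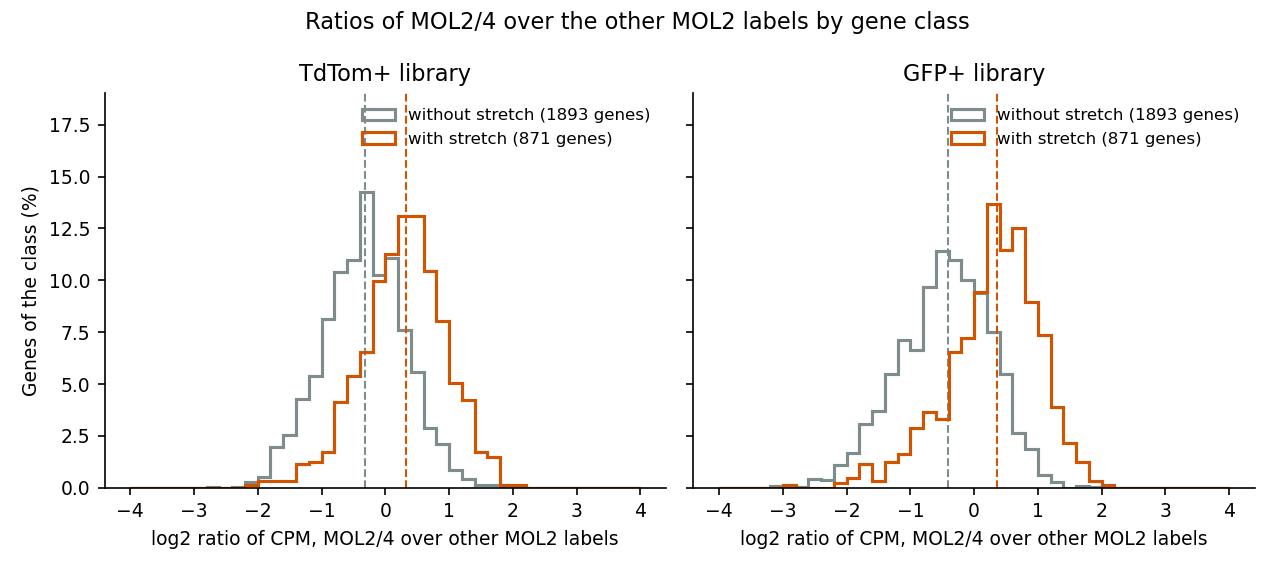
Distribution of log2 ratios of CPM, MOL2/4 over the other MOL2 labels, for 871 genes with and 1893 genes without an encoded hydrophobic stretch, as percent of each class, in the TdTom+ (left) and GFP+ (right) libraries. Dashed lines mark the medians, at 0.33 and -0.32 in the TdTom+ and 0.37 and -0.41 in the GFP+ library.

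Genes with the stretch had the higher median within each of 4 groups of rising protein length, by an amount that was smallest in the longest group. Among the shortest proteins, of 37 to 201 residues, genes with the stretch had medians of -0.11 and 0.03 and genes without it -0.76 and -1.001, and among those of 202 to 350 residues the medians were 0.49 and 0.61 against -0.36 and -0.46. Among those of 351 to 618 residues they were 0.46 and 0.57 against -0.06 and -0.18. Among the longest, of 621 residues or more, they were 0.29 and 0.28 against -0.11 and -0.13. The 4 groups of rising coding GC content had medians that stayed between -0.23 and -0.08. By cell, genes with the stretch gave a median of 44.3% of the protein-coding UMIs in TdTom+ and 45.0% in GFP+ MOL2/4 cells, against 30.3% and 30.3% in the other MOL2 labels and 30.6% and 30.9% in the MOL5/6 labels. The 60 cells of other labels under 4% ribosomal protein had 40.7%. The 25 MOL6a cells among them had 41.5%, against 31.6% in the other MOL6a cells, and the 16 MOL2/4 cells at or over 4% had 34.1%. These shares and ratios come from the same UMIs as the labels and are a description.

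Against the MOL5/6 labels, 139 genes were higher and 271 lower in MOL2/4 (9.48% of 2858 genes compared were lower). Klk6 led by far, at 712 and 2235 CPM against 6.70 and 8.53 CPM, with log2 ratios of 6.53 (6.01 to 7.53) and 7.87 (7.14 to 9.10). The 8 highest genes otherwise included the MOL2 markers S100b, Hopx and Mgst3, Serpind1, Tspan9 (a tetraspanin), Mmd2 (a membrane receptor-like protein of the Golgi) and Enpp6, a choline-releasing phosphodiesterase of young oligodendrocytes. Serpind1 was at 153 and 192 CPM against 8.56 and 12.8 CPM, and Tspan9 at 175 and 183 CPM against 15.3 and 17.9 CPM. Tspan9 and Mmd2 were not called against the other MOL2 labels, whereas Serpind1 was, at levels that no other label reached. The lowest genes were Hebp1 (a haem-binding protein), Il33, the uncharacterised A230009B12Rik, Ccp110 (a centriole protein), Anapc13 (a subunit of the anaphase-promoting complex) and the ribosomal protein genes Rps3a1, Rpl35a and Rps12. Without the MOL2/4 cells that lacked Klk6, the ratio of Il33 nearer 0 went from -2.68 to -4.15. Ccp110 was at 82.1 and 59.5 CPM against 330 and 396 CPM.

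By group, and against the 4.86% of all genes that were higher and 9.48% that were lower, 73 of 80 cytosolic ribosomal protein genes were lower than in the MOL5/6 labels and none higher, and with centring by class 50 were lower. The background with centring by class was 121 higher and 175 lower of all 2858 genes. Of 9 cholesterol synthesis genes 4 were higher, Hmgcs1, Fdps, Ebp and Sc5d, and of 15 fatty acid and galactolipid genes 4 were higher, Elovl1, Elovl5, Elovl7 and Cers2. With centring by class Sc5d came to 0.87, Elovl5 to 0.97, Elovl7 to 0.68 and Cers2 to 0.77, so 1 of the 15 fatty acid and galactolipid genes stayed called. Of the 23 structural myelin genes 5 were higher, Pmp22, Gpm6b, Gjb1 and Mog among them, and Opalin was lower. With centring by class 2 of the 5 stayed called, and Gpm6b came to 0.71, Gjb1 to 0.92 and Mog to 0.62. Mog, whose ratio nearer 0 was 1.00, also came to 0.996 with a pseudocount of 10 CPM and 0.91 without the MOL2/4 cells that lacked Klk6. Pmp22, a membrane protein of peripheral myelin also made in this lineage, was at 843 and 902 CPM against 122 and 160 CPM, and Ldhb, a lactate dehydrogenase subunit, at 159 and 247 CPM against 26.8 and 31.5 CPM. Hapln2, a link protein of the nodal matrix, Itgb4 and Itgav, both integrin subunits, were the 3 higher genes of 8 matrix genes and receptors, of which Itgav came to 0.77 with centring by class. Genes with the hydrophobic stretch were 108 of the 134 higher and 24 of the 253 lower genes with a coding sequence here too, but both comparisons share the MOL2/4 cells.

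Between the libraries, 28 of 1404 genes were at least 2-fold apart within MOL2/4. In the TdTom+ library 17 were higher (1.21%) and 11 lower (0.783%) than in the GFP+ library, and scaling by edgeR TMM turned this to 9 higher and 16 lower. Klk6 was the most abundant of them, with a log2 ratio of TdTom+ over GFP+ of -1.65 (-1.94 to -1.37). In the other MOL2 labels it was -1.14 (-1.31 to -0.98), and the difference between the 2 was not tested. Over the cells with Klk6 alone, the ratio was -0.71. The other lowest genes were Tulp3, a cilium trafficking protein, at 27.4 and 179 CPM, Lrrc58 and Smim19, both at 49.3 and 160 CPM, and S100a6, a calcium-binding protein, at 87.6 and 243 CPM. These rested on 5 to 53 UMIs a library, and S100a6 came to -0.96 over the cells with Klk6 alone. The highest were Eif2s2 (a translation initiation factor) at 235 and 91.6 CPM, Serf2 at 279 and 110 CPM, Ccnl2 (a cyclin of splicing) at 181 and 73.3 CPM, Gstp1 (a glutathione transferase) at 274 and 119 CPM, and Serbp1 (an mRNA-binding protein) at 170 and 77.8 CPM, although Serbp1 came to a ratio of 0.71 with cells thinned to 2400 UMIs. Sox10, the transcription factor of the lineage, was also called, at 800 and 375 CPM with a ratio of 1.09 (0.69 to 1.499), and stood at 0.63 (0.52 to 0.75) in the other MOL2 labels and 0.65 in the MOL5/6 labels. It was named after its value was seen, and the name of the mouse line holds a Sox10 transgene. Origin, sort and library cannot be told apart here.

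Across genes, MOL2/4 was most like MOL2/MFOL, except that in the GFP+ library MOL2b came first with no filter (0.887) or without the called genes (0.841). The Pearson correlation of log2(CPM + 1) over 2955 genes was 0.863 in the TdTom+ and 0.818 in the GFP+ library, followed by MOL1 at 0.852 in the TdTom+ and MOL2b at 0.808 in the GFP+ library, and in the MOL5/6 labels it was between 0.743 and 0.823. The other mature labels were more alike, with their least similar pair, MOL2/MFOL and MOL6b, at 0.901 and 0.862. MOL2/4 of the 2 libraries correlated at 0.910, above its correlation with any other label. Genes are not independent, and labels with fewer cells have noisier levels.

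The genes whose level over the 12 labels and 2 libraries (24 values) was most like that of Klk6, among 2788 genes, were Sccpdh (r = 0.932), Plpp2 (0.867), Fam131b (0.867), Sparc (0.843) and Gltp (0.827). Sccpdh, a putative oxidoreductase, was at 498 and 572 CPM in MOL2/4 and at 154 and 146 CPM in MOL6a. Sparc was at 203 and 192 CPM in MOL2/4 and at 19.8 and 31.4 CPM in MOL6a, and Gltp, a carrier of glycolipids, was at 1238 and 1580 CPM in MOL2/4 and at 1558 and 1553 CPM in MOL2a. The values share the depth and make-up of each library and are given as a description.

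Markers of other cell types differed in their signal in MOL2/4. All 7 microglia markers in the matrix had 0 UMIs in both libraries, and the 5 endothelial markers had 0 and 2 UMIs. Of the 5 neuronal markers Snap25, Syt1, Stmn2 and Meg3 were at 0 and the whole signal, 181 and 174 CPM against 73.0 and 92.4 CPM in the other MOL2 labels, was the tubulin Tubb3. The 7 astrocyte markers summed to 285 and 183 CPM against 289 and 254 CPM in the other MOL2 labels, with Aqp4 at 0. The 2 Schwann cell markers in the matrix summed to 849 and 902 CPM against 447 and 487 CPM, nearly all of it Pmp22, with Ncmap at 1 and 0 UMIs. OPC markers summed to 65.7 and 41.2 CPM (12 and 9 UMIs), with Pdgfra at 0, against 31.9 and 32.3 CPM in the other MOL2 labels. The markers of COP/NFOL (committed and newly formed cells) summed to 43.8 and 41.2 CPM against 50.1 and 39.8 CPM, with no MOL2/4 cell holding 3 UMIs of either list. The immediate early genes that mark MOL1 summed to 246 and 261 CPM against 354 and 298 CPM in the other MOL2 labels.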

How the data were processed

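Both libraries were made with the 10x Genomics Single Cell 3′ v2 kit, and the submitters' processing notes name Cell Ranger 2.1.1 and mm10. The authors deposited 1 matrix of 11733 genes and 2853 cells as a signal, the UMI count of a gene over a whole-number total per cell. It was turned back into UMI counts by taking the smallest value of a cell as 1 UMI, and 100% of values above 0 came out within 0.01 of a whole number. The deposited table of cells gave library, label and a count of genes per cell, and its other 37 columns and 3 spinal cord samples were not used here. The methods of the study give alignment with STAR and a filter on cells (from 200 up to 3000 genes, mitochondrial share below 5%), outside which 23 TdTom+ and 10 GFP+ cells lay, none of them MOL2/4.

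UMIs were summed per library and population and scaled to CPM. Ratios are log2 of (CPM + 1). Genes needed a mean of at least 50 CPM (100 CPM between libraries) and were called at 2-fold or more, in the same direction in both libraries where MOL2/4 was compared with other labels. The design had assumed counts, so the counts used are the recovered ones. Intervals were exact (Poisson, conditional binomial or Clopper-Pearson). PCR duplicates are collapsed by UMI, and intervals cover counting error only. Scripts used Python 3.11.15, numpy 2.4.6, scipy 1.17.1, scanpy 1.11.5 and edgeR (TMM factors alone), and were tested on simulated data.

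The genes named were Klk6 and the marker lists, the 15 highest and 10 lowest against the other MOL2 labels by the ratio nearer 0 of both libraries, 8 and 8 against the MOL5/6 labels, 5 and 5 between libraries, called members of each list (or its 2 most abundant members), kallikreins and the 5 genes most like Klk6. Members, lists and this rule were chosen with earlier results of these data known. The hydrophobic class, the ER list and the 4% limit were added after seeing values, and Mbp, Mobp, Mag, Xbp1, Atf4 and Sox10 were named outside the rule. Some genes are not reported here.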

Additional observations from a re-analysis of the deposited data

Results flagged for a closer look

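Lrrc58 stood out because MOL2/4 differed from the other MOL2 labels in opposite directions in the 2 libraries. Its log2 ratio was -1.02 in the TdTom+ and 0.60 in the GFP+ library, from 9 and 35 UMIs in MOL2/4. The difference between the libraries was not tested, since there was 1 library per origin.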

How the results depend on the processing

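No paired analysis was possible because no result comes from a test, and ratios against other labels were taken within each library. For ranked genes, MOL2 and MOL5/6 markers and called list members other than ribosomal and respiratory chain genes, 1646 of 1770 values under alternatives stayed within the counting interval, 123 moved and 1 reversed, Ptgds against the other MOL2 labels at -0.094 (1.13 over all MOL2/4 cells) without those that lacked Klk6. Part of the 1646 was fixed in advance and measures no stability. The filters and the fold rule change which genes are kept or called, and leave a gene's ratio as it was. For genes called against other labels, the single library with the ratio nearer 0 also returns the same value. Of the values of called genes, 50 came under 2-fold, 31 of them with centring by hydrophobic class, lipid synthesis, lysosomal and structural myelin genes among them, and 9 without those cells, and the others included Fdps (0.95) and Ctsl (0.94) with a pseudocount of 10 CPM and Stmn1 (-0.77) against MOL2b alone. The filter on low levels and the fold rule moved the counts by over 1.5 times. Against the other MOL2 labels (301 genes called), no filter gave 1267, a filter of 200 CPM 121 and a 1.5-fold rule 846. Among alternatives chosen after seeing the data, the TdTom+ library alone gave 484, the GFP+ library alone 669, and centring each gene on its hydrophobic class 190, of which 130 were among the 301. The split of 76 higher and 225 lower became 142 and 227 against MOL2b alone, and 132 and 201 with totals without ribosomal protein, Malat1 and mitochondrial UMIs, where the median gene moved to -0.05 and -0.06. Against the MOL5/6 labels (410), the counts were 1677, 167 and 958 for the first 3 and 793 for the GFP+ library alone. In each of these settings ribosomal protein genes were lower and none higher. Between libraries (28), they were 3366, 4 and 214, then 60 with cells thinned to 2400 UMIs, 67 with the reduced totals and 94 with cells without Klk6 left out, and edgeR TMM turned 17 higher and 11 lower into 9 and 16. The share of MOL2/4 cells with Klk6 was 26.7% and 66.7% at 1000 UMIs. The share of Klk6 UMIs in MOL2/4 was 21.3% and 49.3% as a sum of each cell's CPM, 20.4% and 49.8% after thinning, and 41.2% in GFP+ cells within the study's limits. In the GFP+ library MOL2b was most like MOL2/4 with no filter (0.887) and without called genes (0.841). The cause of these moves was not tested. Scrublet marked 4 TdTom+ and 9 GFP+ cells, none of them MOL2/4.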
